A study of Neurospora crassa with 4 samples.

Results

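The glycolytic enzymes of *Neurospora crassa*, a filamentous fungus, were examined here through 10 loci: a glucokinase, a hexokinase, glucose-6-phosphate isomerase, 6-phosphofructokinase, fructose-bisphosphate aldolase, triosephosphate isomerase, glyceraldehyde-3-phosphate dehydrogenase (*gpd-1*), phosphoglycerate kinase, enolase and pyruvate kinase. The loci were listed by enzyme name, with no expression value in the rule but with earlier results of these data known, and make up 10 of the 9691 rows of the expression tables. The gene descriptions in the tables named the listed enzyme for each of the 10, and each locus had a row of its own. Cells were grown from conidia for 6 h in liquid minimal medium with sucrose and then treated for 1 h. The experiment compared a wild-type strain with the Δ*czt-1* strain, from which the gene for the transcription factor CZT-1 (NCU09974) is deleted. Each strain received either 20 μM staurosporine, an inhibitor of protein kinases that kills these cells, or the solvent DMSO. There was 1 library per condition and 1 deletion strain, so values carry no replicate error, differences were not checked in replicates, and no test was made.

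Glycolysis splits glucose into pyruvate in the cytosol. In its preparatory phase sugar phosphates are made at the expense of ATP and cleaved into triose phosphates, and in its payoff phase the triose phosphates are oxidised and ATP and NADH are gained. Pyruvate then enters the mitochondrion for oxidation or is turned into ethanol, and several intermediates feed other pathways, such as the pentose phosphate pathway and the storage of glycogen and trehalose. Of the steps of the pathway, phosphoglycerate mutase had no locus among the 10 and is described with the neighbouring pathways.

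Expression was given in FPKM, a read density scaled to transcript length and to the mapped reads of the library, which can be compared between genes of a library. Between libraries it depends on the scaling. The deleted gene was at 19.7 FPKM with DMSO and 384 FPKM with staurosporine in the wild type, whereas Δ*czt-1* had 2.26 and 1.54 FPKM. The FPKM of all genes summed to between 550288 and 1.07213e+06 per library. The number of reads behind the values is unknown, because low values did not fall on steps that would show it. In bulk cultures such as these, fewer cells with an active gene and less RNA per cell cannot be told apart. The conidial genes *con-10* (NCU07325) and *eas* (NCU08457) were both higher with staurosporine in each strain. The level of *con-10* was 1.26 FPKM with DMSO and 8.14 FPKM with staurosporine in the wild type, and 1.29 and 30.5 FPKM in Δ*czt-1*. That of *eas* was 20.5 and 44.9 FPKM in the wild type, and 44.0 and 95.7 FPKM in Δ*czt-1*, where it was thus higher than in the wild type already with DMSO. Their part in the values of the glycolytic genes was not tested.

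All 10 glycolytic genes were well expressed in all 4 libraries, from 114 FPKM for 6-phosphofructokinase in the DMSO-treated wild type to 5438 FPKM for *gpd-1* in the same library. Within each library the genes lay at 3 levels. The enzymes of the upper part of the preparatory phase, from the kinases that phosphorylate glucose to 6-phosphofructokinase, lay between 114 and 495 FPKM. Triosephosphate isomerase, phosphoglycerate kinase and pyruvate kinase lay between 491 and 997 FPKM. Aldolase, enolase and *gpd-1* lay at 1229 FPKM or more, and their order was the same in every library, with *gpd-1* first, enolase next and aldolase after it. These highest 3 held 79.5% of the summed FPKM of the 10 genes in the DMSO-treated wild type, 72.5% in the staurosporine-treated wild type, and 75.1% and 70.6% in the corresponding Δ*czt-1* libraries.

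**Figure D1:**
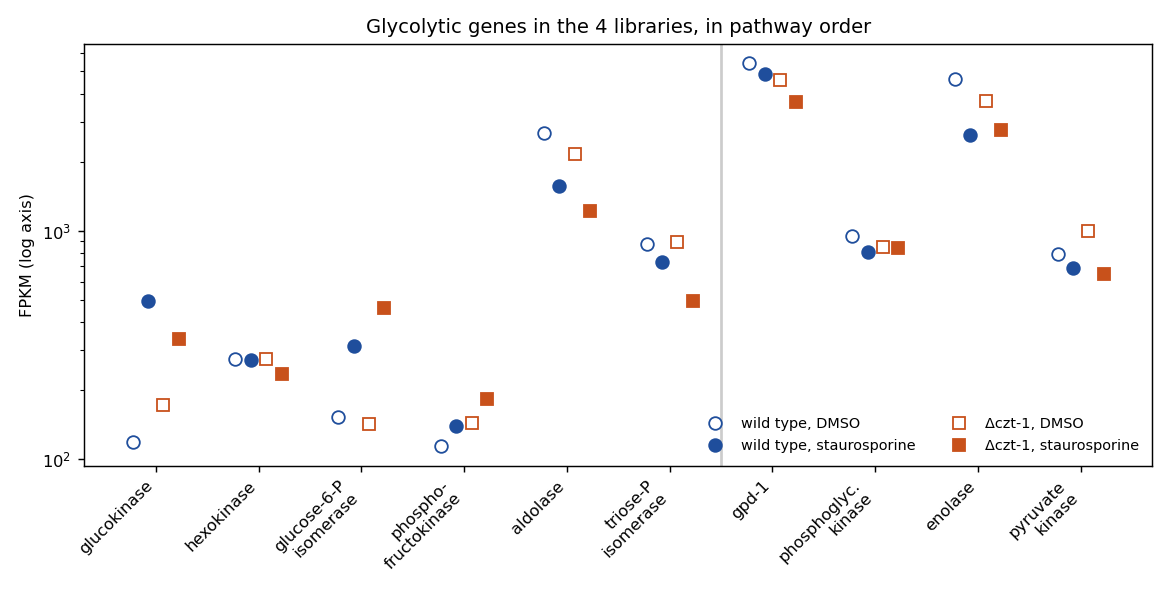
FPKM, on a log axis, of the 10 glycolytic genes in pathway order, with 1 point per library; circles are the wild type, squares Δ*czt-1*, open symbols DMSO and filled symbols staurosporine, and the vertical line separates the preparatory from the payoff phase. Glucokinase moved most between libraries, from 119 to 495 FPKM, and hexokinase least, from 237 to 276 FPKM.

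The glucose-phosphorylating step differed between its 2 main genes. Glucokinase (NCU00575), which phosphorylates glucose, was at 119 FPKM in the DMSO-treated wild type, 495 FPKM in the staurosporine-treated wild type, 172 FPKM in DMSO-treated Δ*czt-1* and 337 FPKM in staurosporine-treated Δ*czt-1*. Both staurosporine libraries were above both DMSO libraries. Hexokinase (NCU02542, *emp-1* in RefSeq), which phosphorylates glucose and other hexoses, was at 276, 271, 274 and 237 FPKM in the same order of libraries. Its highest value was 1.16 times its lowest, the smallest such ratio among the 10 genes, whereas that of glucokinase was 4.17, the largest. The order of the 2 genes turned round with the drug in both strains. The ratio of glucokinase to hexokinase FPKM, which no rescaling of whole libraries can change, was 0.430 with DMSO and 1.83 with staurosporine in wild-type cells, and 0.626 and 1.42 in Δ*czt-1* cells.

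Glucose-6-phosphate isomerase (NCU07281, *gpi-1*), which converts glucose 6-phosphate to fructose 6-phosphate, was at 153 FPKM with DMSO and 313 FPKM with staurosporine in the wild type, and at 142 and 458 FPKM in Δ*czt-1*. The staurosporine libraries were again the 2 highest, here with Δ*czt-1* at the top. 6-Phosphofructokinase (NCU00629, *emp-3*), which adds the second phosphate and commits the sugar to glycolysis, was at 114 and 140 FPKM in the wild type and at 144 and 183 FPKM in Δ*czt-1*. It was the lowest of the 10 genes in every library but that of DMSO-treated Δ*czt-1*, where the isomerase lay marginally below it. The ratio of isomerase to phosphofructokinase FPKM was 1.35 and 2.24 in the wild type with DMSO and staurosporine, and 0.992 and 2.50 in Δ*czt-1* cells.

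Aldolase (NCU07807, *fba*), which cleaves fructose 1,6-bisphosphate into triose phosphates, was at 2686 and 1575 FPKM in the wild type and at 2179 and 1229 FPKM in Δ*czt-1*. Both of its staurosporine libraries were below both DMSO libraries. Triosephosphate isomerase (NCU07550), which interconverts the triose phosphates, was at 881 and 734 FPKM in the wild type and at 897 and 491 FPKM in Δ*czt-1*. Its DMSO libraries were nearly equal, and the staurosporine-treated deletion strain had the lowest value.

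In the payoff phase, *gpd-1* (NCU01528, also known as *ccg-7*), which oxidises glyceraldehyde 3-phosphate and makes NADH, was at 5438 and 4862 FPKM in the wild type and at 4584 and 3667 FPKM in Δ*czt-1*. Among all genes it ranked 44th with DMSO and 6th with staurosporine in the wild type, while its ranks were 35th and 9th in Δ*czt-1*, so that it stood higher in the list with a lower FPKM. Phosphoglycerate kinase (NCU07914, *pgk*), which transfers a phosphate to ADP, was at 953 and 806 FPKM in the wild type and at 849 and 844 FPKM in Δ*czt-1*. Enolase (NCU10042, *emp-7*), which makes phosphoenolpyruvate, was at 4642 and 2643 FPKM in the wild type and at 3702 and 2763 FPKM in Δ*czt-1*. The staurosporine libraries of enolase were the lower ones, and it too ranked higher with the drug, 15th against 62nd in the wild type and 18th against 58th in Δ*czt-1*. Pyruvate kinase (NCU06075, *ace-8*), which makes pyruvate and ATP, was at 794 and 690 FPKM in the wild type and at 997 and 645 FPKM in Δ*czt-1*. Phosphoglycerate kinase, triosephosphate isomerase and pyruvate kinase changed places among the libraries, and without replicates it cannot be said which of these neighbours differ beyond their spread.

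The first comparison asked how wild-type cells respond to staurosporine. Changes were taken as differences of log2(FPKM + 1), and a change of at least 2-fold on that scale was counted. Glucokinase rose by 2.05 and glucose-6-phosphate isomerase by 1.03, just inside the 2-fold limit, while no glycolytic gene fell by as much. Among the 7896 genes that reached 1 FPKM in some library, 12.8% were at least 2-fold higher and 14% at least 2-fold lower. Counts of 2 risen and 0 fallen among 10 genes are near these shares, and nothing is read from the counts themselves. The rise of glucokinase was exceeded by 175 genes, 2.22% of those compared, whereas that of the isomerase was exceeded by 960 genes, or 12.2%.

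The other 8 genes stayed within 2-fold in the wild type. The change was −0.81 for enolase, −0.77 for aldolase, −0.26 for triosephosphate isomerase, −0.24 for phosphoglycerate kinase, −0.20 for pyruvate kinase, −0.16 for *gpd-1* and −0.03 for hexokinase. 6-Phosphofructokinase, at 0.30, was the third gene above 0. The median of the 10 changes was −0.18, compared with 0.11 for all genes, and their SD across genes was 0.86, compared with 1.04. Highly expressed genes as a whole tended to lower values: the 986 genes with a mean of at least 100 FPKM, a reference chosen after values were seen, had a median change of −0.40, with 9.94% at least 2-fold higher and 31.3% at least 2-fold lower. None of the 10 glycolytic genes was among those fallen.

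In Δ*czt-1* cells, glucose-6-phosphate isomerase rose by 1.68 with staurosporine and glucokinase changed by 0.97, just outside the 2-fold limit. The isomerase was thus the one gene counted, beside 18.2% of all genes at least 2-fold higher and 19.6% at least 2-fold lower. The rise of the isomerase was exceeded by 595 genes, or 7.54%, and the change of glucokinase by 1496 genes, or 18.9%. Triosephosphate isomerase (−0.87), aldolase (−0.83), pyruvate kinase (−0.63), enolase (−0.42), *gpd-1* (−0.32), hexokinase (−0.21) and phosphoglycerate kinase (−0.01) lay below 0, and 6-phosphofructokinase (0.35) above it. The median of the 10 was −0.27, compared with 0.00013 for all genes and −0.54 for the highly expressed genes, of which 7.91% were at least 2-fold higher and 34.7% at least 2-fold lower.

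Each of the 10 genes changed in the same direction in both strains on the deposited scale, some by values near 0. The share of all genes that did so was not computed, so nothing is read from the count. With median-of-ratios scaling phosphoglycerate kinase changed by −0.24 in the wild type and by 0.15 in Δ*czt-1*. In plain ratios of FPKM, glucokinase was 4.17 times higher with staurosporine in the wild type and 1.96 times in Δ*czt-1*, and the isomerase 2.04 and 3.22 times. The median change of the 6 preparatory genes was above that of the 4 payoff genes by 0.36 in the wild type and by 0.44 in Δ*czt-1*. Within the preparatory phase of the wild type the changes ran from 2.05 for glucokinase to −0.77 for aldolase. In Δ*czt-1* they ran from 1.68 for glucose-6-phosphate isomerase to −0.87 for triosephosphate isomerase. Hexokinase, at the same step as glucokinase, changed by −0.03 and −0.21, so that the phase did not move as a block.

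**Figure D2:**
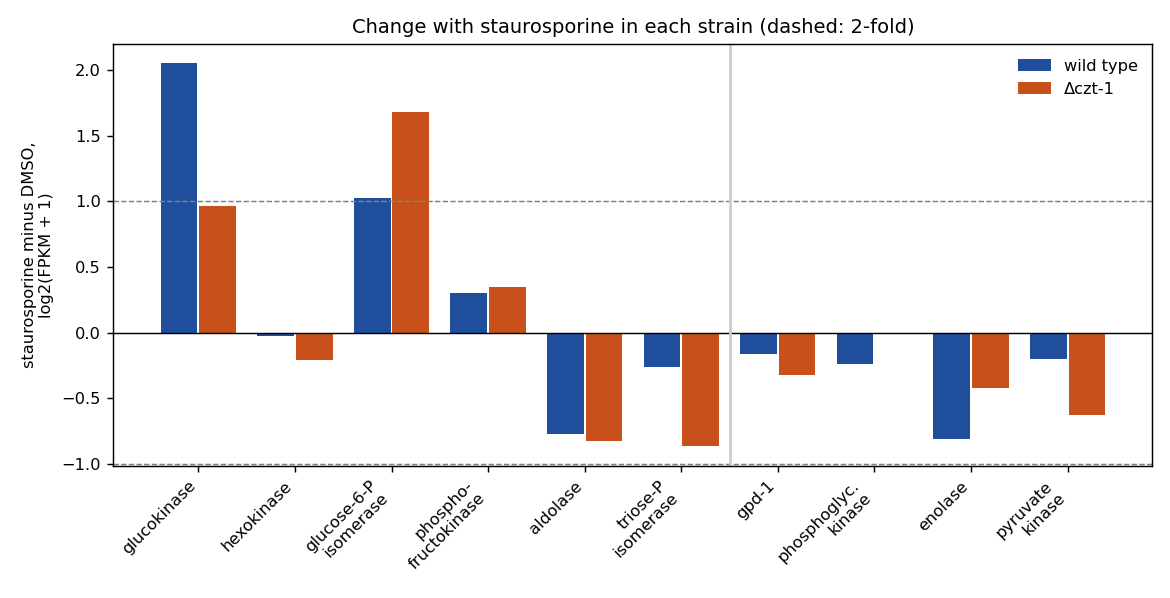
Change of each glycolytic gene with staurosporine, as the difference of log2(FPKM + 1) between the staurosporine and the DMSO library of each strain, in pathway order; the dashed lines mark a 2-fold change and the vertical line separates the phases. Glucokinase in the wild type (2.05) and glucose-6-phosphate isomerase in both strains (1.03 and 1.68) pass the upper line, and no bar passes the lower one.

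The direction of the smaller changes depended on how the libraries were put on one scale. The FPKM of the 10 genes summed to 16057 in the DMSO-treated and 12529 in the staurosporine-treated wild type, and to 13940 and 10854 in Δ*czt-1*, yet their share of the summed FPKM of all genes was 1.5% with DMSO and 2.20% with staurosporine in the wild type, and 1.59% against 1.97% in Δ*czt-1*. When every library was scaled to the same FPKM sum, the median gene moved from 0.11 to 0.85 in the wild type and from 0.00013 to 0.60 in Δ*czt-1*. With this scaling all 10 glycolytic genes were higher with staurosporine in the wild type and 8 of 10 in Δ*czt-1*, aldolase (−0.15) and triosephosphate isomerase (−0.20) being the exceptions. It also put 43.1% of all genes at least 2-fold higher and 4.47% at least 2-fold lower in the wild type, with 35.0% and 10.7% in Δ*czt-1*. Centring on the median gene and median-of-ratios scaling each left 3 glycolytic genes higher and 7 lower in the wild type, as on the deposited scale. In Δ*czt-1* centring gave 3 higher and 7 lower, and median-of-ratios scaling 4 higher and 6 lower. Relative to the median gene, the median of the glycolytic genes was −0.29 in the wild type and −0.27 in Δ*czt-1* on the deposited scale, and −0.12 and −0.19 with equal sums. Glucokinase and glucose-6-phosphate isomerase were the 2 genes with the highest changes on either scale, with equal sums at 2.96 and 1.93 in wild-type cells and at 1.64 and 2.35 in Δ*czt-1*.

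The second question was whether the absence of CZT-1 altered the glycolytic genes. With DMSO, none of the 10 differed at least 2-fold between the strains, as Δ*czt-1* minus wild type, beside 2.58% of all genes higher and 2.36% lower. On the deposited scale all 10 were within 1.5-fold, beside 11.8% of all genes at least 1.5-fold higher and 7.88% at least 1.5-fold lower. With equal FPKM sums glucokinase (0.82), 6-phosphofructokinase (0.62) and pyruvate kinase (0.62) passed 1.5-fold. Of the highly expressed genes, 0.91% were at least 2-fold higher and 1.52% at least 2-fold lower. Glucokinase differed most, by 0.53, followed by 6-phosphofructokinase and pyruvate kinase, each at 0.33, and enolase at −0.33. The median was −0.06, compared with 0.05 for all genes, and 4 genes were above and 6 below 0, a split that became 8 and 2 with equal FPKM sums, where aldolase (−0.01) and enolase (−0.04) stayed below.

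With staurosporine, again none of the 10 differed at least 2-fold between the strains, beside 10.9% of all genes higher and 12.2% lower. On the deposited scale all 10 were within 1.5-fold here too, beside 22.0% of all genes at least 1.5-fold higher and 23.2% at least 1.5-fold lower. Glucose-6-phosphate isomerase passed this limit with equal FPKM sums (0.60) and with median-of-ratios scaling (0.67). Of the highly expressed genes, 2.13% were at least 2-fold higher and 16.9% at least 2-fold lower. The SD of the difference over all genes, weakly expressed ones included, was 0.53 with DMSO and 0.92 with staurosporine. The SD over the glycolytic genes was 0.30 with DMSO and 0.38 with staurosporine. Triosephosphate isomerase (−0.58) and glucokinase (−0.56) were the lowest in Δ*czt-1* relative to the wild type, and glucose-6-phosphate isomerase (0.55) and 6-phosphofructokinase (0.38) the highest. The median was −0.14, compared with −0.03 for all genes. The 2 libraries of this comparison do not stand in one deposited table. They were set side by side because the DMSO libraries had identical values in the tables that repeat them.

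The responses of the strains could also be set against each other. The response in Δ*czt-1* minus that in the wild type was −1.09 for glucokinase, the largest difference among the 10, and 0.65 for glucose-6-phosphate isomerase. It was −0.60 for triosephosphate isomerase, −0.42 for pyruvate kinase, 0.39 for enolase and 0.23 for phosphoglycerate kinase, and lay between −0.19 and 0.05 for hexokinase, *gpd-1*, aldolase and 6-phosphofructokinase. Over all genes this difference had an SD of 1.07, and 15.5% of genes lay at or below the value of glucokinase and 22.3% at or above that of the isomerase. The differences of both genes were thus of a size common among all genes, weakly expressed ones included. The share among genes of similar level was not computed, and without replicates the differences could not be tested.

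**Figure D3:**
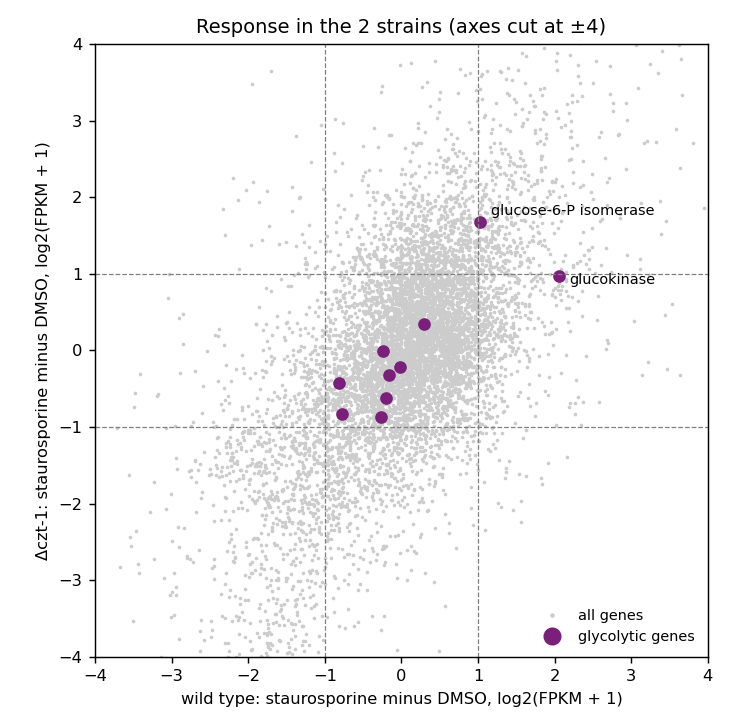
Change with staurosporine in the wild type (x axis) and in Δ*czt-1* (y axis), both as differences of log2(FPKM + 1), for all 7896 genes in grey and the 10 glycolytic genes in purple; dashed lines mark 2-fold, and points beyond 4 on either axis are not drawn. Of the glycolytic genes, 8 lie within 2-fold on both axes, glucose-6-phosphate isomerase passes it in both strains (1.03 and 1.68) and glucokinase in the wild type (2.05 and 0.97).

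The genes most like a member in pattern were sought among the 5652 genes that reached 10 FPKM in some library, by the Euclidean distance between their log2(FPKM + 1) differences from the DMSO-treated wild type. For glucokinase, which rose most, these were NCU08358, a hypothetical protein (distance 0.17), NCU04021, an ABC transporter (0.24), and NCU02580, a fumarate reductase (0.28). For enolase, which had the lowest change in the wild type, they were NCU06354, a small nuclear ribonucleoprotein (0.06), NCU02548, a hypothetical protein (0.07), and NCU07478, a mitochondrial carrier protein (0.08). Each distance rests on 4 libraries. No glycolytic gene was among them. Within the pathway the closest pair was hexokinase and phosphoglycerate kinase (0.27), while glucokinase and glucose-6-phosphate isomerase, which both were higher with staurosporine, were 1.21 apart.

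Neighbouring pathways were read from 9 lists made by words in the gene descriptions. The remaining rows described as hexose kinases were weakly expressed. NCU02702, described as a glucokinase, rose in the wild type from 9.74 to 26.4 FPKM (1.35) and was at 16.4 and 22.5 FPKM in Δ*czt-1* (0.43). NCU04728 and NCU06996, described as hexokinases, stayed at or below 11.7 FPKM. Both glucokinases were therefore lower in DMSO-treated wild-type cells than in any other library.

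Of 7 rows described as phosphoglycerate mutase, the step missing from the 10 loci, NCU02252 (*emp-6*) had the highest FPKM in every library. It was at 610 and 363 FPKM in the wild type and at 622 and 321 FPKM in Δ*czt-1*, changes of −0.75 and −0.95, close to those of aldolase. NCU04016, which reached 155 FPKM with staurosporine in the wild type and 180.1 FPKM in Δ*czt-1*, and the weaker NCU07258 rose in both strains, by 1.77 and 1.28 in the wild type and by 2.19 and 1.07 in Δ*czt-1*. NCU09489 was at 25.7 and 18.5 FPKM in the wild type (−0.45) and fell by 3.12 in Δ*czt-1*, from 34.3 to 3.05 FPKM. The 3 enzymes that make or break down fructose 2,6-bisphosphate, an activator of phosphofructokinase, did not pass 2-fold in either strain. Their changes in the wild type and Δ*czt-1* were 0.18 and −0.86 for NCU01178, −0.42 and −0.42 for NCU01728, and −0.45 and 0.10 for NCU09347.

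The enzymes of gluconeogenesis, which bypass the irreversible steps of glycolysis, went different ways. Fructose-1,6-bisphosphatase (NCU04797, *fbp-1*) rose in both strains, from 8.19 to 21.5 FPKM in the wild type (1.29) and from 7.92 to 20.7 FPKM in Δ*czt-1* (1.28). Phosphoenolpyruvate carboxykinase (NCU09873, *acu-6*) fell in the wild type from 25.3 to 2.55 FPKM, a change of −2.89. In Δ*czt-1* it was low already with DMSO, at 3.19 FPKM, and remained so with staurosporine, at 2.41 FPKM. Pyruvate carboxylase (NCU02505) was at 288 and 473 FPKM in the wild type (0.71) and at 390 and 327 FPKM in Δ*czt-1* (−0.26).

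The pentose phosphate pathway, which draws on glucose 6-phosphate for NADPH and ribose, had 10 rows, of which 9 reached an FPKM of 1. None passed 2-fold in the wild type, and 6-phosphogluconolactonase (NCU00087) fell in Δ*czt-1* (−1.01), with −0.62 in the wild type. The medians were −0.40 and −0.42, and with equal FPKM sums they turned to 0.49 and 0.25. Glucose-6-phosphate dehydrogenase (NCU09111), the entry to the pathway, changed by 0.40 in the wild type and −0.39 in Δ*czt-1*, transketolase (NCU01328) by 0.39 and −0.20, and 6-phosphogluconate dehydrogenase (NCU03100) by −0.38 and −0.88.

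Pyruvate dehydrogenase, the complex that turns the product of glycolysis into acetyl-CoA in mitochondria, had 4 rows for subunits, at 166 to 899 FPKM in the DMSO-treated wild type. In Δ*czt-1* all 4 fell with staurosporine, NCU03004 (E1) from 799 to 222 FPKM (−1.84), NCU00050 (component X) from 177 to 63.1 FPKM (−1.48), NCU06482 (E1 alpha) from 1016 to 382 FPKM (−1.41) and NCU07659 from 701 to 312 FPKM (−1.17). Beside them, 19.6% of all genes and 34.7% of the highly expressed genes were at least 2-fold lower in this strain. In the wild type none of the 4 passed 2-fold, with changes from −0.77 to −0.22. The medians were −0.48 in the wild type and −1.44 in Δ*czt-1*, and with equal FPKM sums 0.43 and −0.77. With equal sums 1 of the 4 still passed 2-fold in Δ*czt-1*, beside 10.7% of all genes at least 2-fold lower on that scale. The list also held 3 kinases, which switch the complex off. NCU11744 rose in Δ*czt-1* from 25.2 to 81.9 FPKM (1.66), with 0.69 in the wild type, and NCU06760 and NCU03796 stayed within 2-fold. The division into subunits and kinases, and the genes named here beyond the rule, were chosen after their values were seen.

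Among the 3 rows listed by description for alcoholic fermentation, pyruvate decarboxylase NCU02193 (*cfp*) was at 428 FPKM in the DMSO-treated wild type and between 23.5 and 41.5 FPKM in the other libraries, a change of −4.13 in the wild type and 0.43 in Δ*czt-1*. Alcohol dehydrogenase NCU01754 (*adh-1*) changed by −1.95 and 3.48, and NCU02397, described as a pyruvate decarboxylase but named *ilv-5* in RefSeq, by 1.84 and 3.34. Whether NCU02397 acts in fermentation was not checked.

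The list for the citric acid cycle held 24 rows. In the wild type 2 rose and 6 fell, beside 12.8% of all genes risen and 14% fallen. In Δ*czt-1* 0 rose and 7 fell, beside 18.2% and 19.6%. With equal FPKM sums 5 rose and 3 fell in the wild type, beside 43.1% and 4.47% of all genes on that scale. In Δ*czt-1* 3 rose and 4 fell with equal sums, beside 35.0% and 10.7%. Of the 24 rows, 6 name other reactions, among them steps of lysine and leucine synthesis. Both rises in the wild type were of such rows, NCU06785, a subunit of ATP-citrate synthase, which splits citrate in the cytosol (2.15, with −0.05 in Δ*czt-1*), and NCU02482, a 2-methylcitrate synthase (1.77 and 0.98). Without these rows, left out after values were seen, 3 of 18 fell in the wild type and 4 of 18 in Δ*czt-1*, and the medians were −0.52 and −0.20. The largest falls were those of malate dehydrogenase NCU04122, from 415 to 17.2 FPKM in the wild type (−4.51) and from 496 to 26.4 FPKM in Δ*czt-1* (−4.18), and of aconitate hydratase NCU00977 (−1.78 and −3.40). The others of the 18 that fell were fumarate hydratase NCU10008 in the wild type (−1.35), and isocitrate dehydrogenase NCU00775 (−1.50) and aconitate hydratase NCU04280 (−1.80) in Δ*czt-1*. Further rows for the same enzymes stayed within 2-fold in both strains on the deposited scale. These were malate dehydrogenases NCU04899 (−0.52 and −0.02) and NCU06211 (0.47 and 0.56), and aconitase NCU02366 (0.09 and −0.28). With equal FPKM sums the medians of the list of 24 turned from −0.52 to 0.39 in the wild type and from −0.20 to 0.47 in Δ*czt-1*.

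Genes for glycogen and trehalose, the storage carbohydrates, were the list with a median above 0 in both strains under every scaling tried, 0.63 in the wild type and 0.66 in Δ*czt-1* on the deposited scale. Of 10 rows, 2 rose and 1 fell in the wild type, and 5 rose and 0 fell in Δ*czt-1*, beside the 12.8% of all genes risen and 14% fallen in the wild type and the 18.2% and 19.6% in Δ*czt-1*. With equal FPKM sums 8 rose and 0 fell in the wild type, beside 43.1% of all genes risen and 4.47% fallen on that scale. In Δ*czt-1* 5 rose and 0 fell, beside 35.0% and 10.7%, so that the strain with more rises depends on the scaling. The enzyme that makes UDP-glucose, NCU02797, rose in both, from 407 to 841 FPKM in the wild type (1.05) and from 429 to 941 FPKM in Δ*czt-1* (1.13), and glycogen synthase (NCU06687, *gsy-1*) rose in the wild type (1.31, with 0.19 in Δ*czt-1*). Glycogen phosphorylase (NCU07027), which releases glucose units from glycogen, fell from 53.4 to 25.3 FPKM in the wild type (−1.05) and rose from 10.6 to 88.6 FPKM in Δ*czt-1* (2.95). Glycogenin (NCU06698), the primer of glycogen synthesis, changed by 0.76 in the wild type and rose by 1.44 in Δ*czt-1*, where neutral trehalase (NCU04221) and a trehalose-phosphate synthase (NCU09715) also rose, by 1.35 and 1.16. Phosphoglucomutase (NCU10058), which links these stores to glucose 6-phosphate, changed by −0.02 and −0.55.

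**Figure D4:**
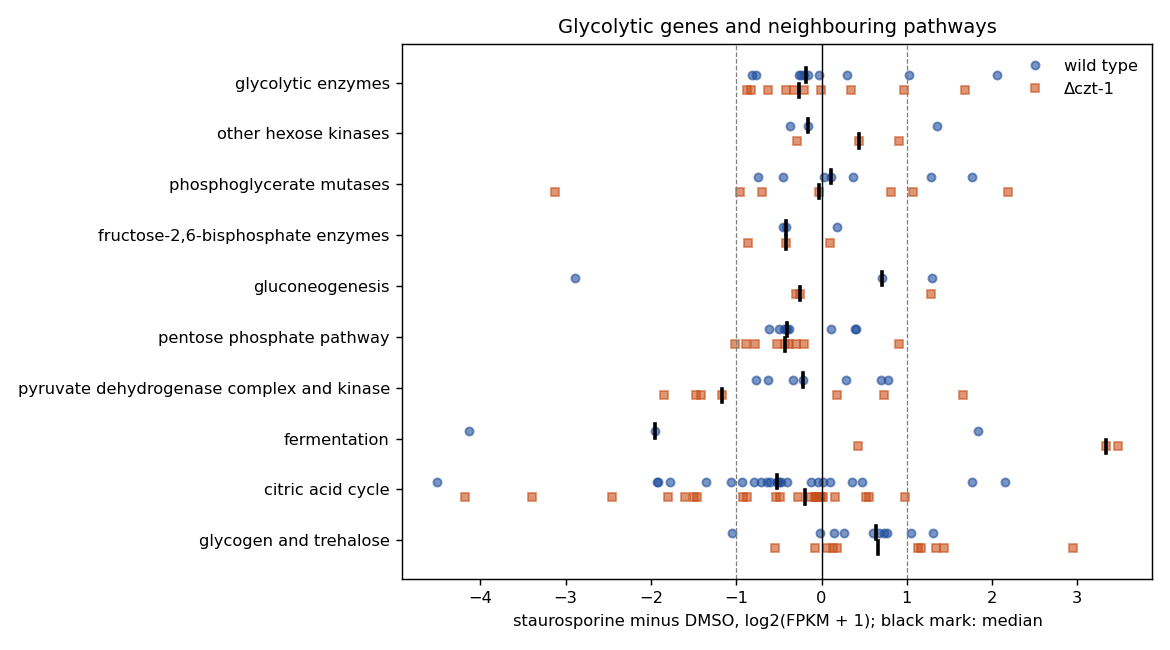
Change with staurosporine, as the difference of log2(FPKM + 1), of the 10 glycolytic genes and of the genes in the 9 lists of neighbouring pathways, with 1 point per gene (circles, wild type; squares, Δ*czt-1*), black marks for medians and dashed lines at 2-fold. The glycolytic genes keep between −0.87 and 2.05, while rows of fermentation and of the citric acid cycle reach −4.13 and −4.51 in the wild type.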

How the data were processed

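Total RNA of 4 cultures was poly(A)-selected and sequenced as single reads of 50 bases. Per the labels, reads were mapped with TopHat2 2.0.4 and processed with Cufflinks 2.0.2 and Cuffdiff, as the submitters' processing notes list them. The sources used here do not give the genome build, the use of strand or the handling of reads shared by similar genes. The authors deposited FPKM, normalized for transcript length and mapped reads, in 3 tables of library pairs. The other columns, which hold the fold changes, test statistics, p-values and q-values of the authors' tests, were not used, and 0 columns of samples remained unmatched.

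Changes were computed with Python 3.11.15, pandas 2.3.3 and numpy 2.4.6 as differences of log2(FPKM + 1), which understate the change of low genes, over the 7896 genes that reached 1 FPKM in some library. No test was run. The 2-fold rule was run on copies of the DMSO-treated wild-type library with set changes and no noise, which checks its arithmetic only. Both staurosporine responses and both strain comparisons share libraries. Names came from the descriptions in the tables and from the RefSeq annotation of NC12, where 9141 of 9691 rows matched. The text names the 10 loci, *czt-1*, the whole of each pathway list of up to 4 rows, otherwise the 2 largest rises and 2 largest falls among genes reaching 10 FPKM, and the 3 genes nearest in pattern to 2 members. Others that complete a count of 5 or fewer, and the further rows for malate dehydrogenase and aconitase, were chosen after their values were seen. Members and lists were chosen with earlier results of these data known. Alternatives tried were pseudocounts of 0.1 or 5, no filter or a minimum of 10 FPKM, equal FPKM sums, centring on the median gene, median-of-ratios scaling, and a 1.5-fold threshold.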

Additional observations from a re-analysis of the deposited data

Results flagged for a closer look

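For 6 of the 10 genes the difference between Δ*czt-1* and the wild type pointed one way with DMSO and the opposite way with staurosporine. The difference with staurosporine minus that with DMSO was −1.09 for glucokinase (NCU00575), from 0.53 to −0.56, and 0.65 for glucose-6-phosphate isomerase (NCU07281), from −0.11 to 0.55. It was −0.60 for triosephosphate isomerase (NCU07550), from 0.03 to −0.58, and −0.42 for pyruvate kinase (NCU06075), from 0.33 to −0.10. For enolase (NCU10042) it was 0.39, from −0.33 to 0.06, and for phosphoglycerate kinase (NCU07914) 0.23, from −0.17 to 0.07. With 1 library per condition none of these differences was tested. Several of the signs rest on differences near 0. The share of all genes with opposite signs was not computed, so nothing is read from the count itself. With equal FPKM sums 6 genes again had opposite signs, but glucose-6-phosphate isomerase and phosphoglycerate kinase were replaced by hexokinase and *gpd-1*. Centring on the median gene left 5 genes and median-of-ratios scaling 4, and glucokinase and enolase were among them under every scaling.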

How the results depend on the processing

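Equal FPKM sums raised the median change of the glycolytic genes with the drug from −0.18 to 0.73 (wild type) and from −0.27 to 0.41 (Δ*czt-1*), because the scaling adds the same amount to nearly every gene. The number of glycolytic genes at least 2-fold higher became 3 in each strain, beside 43.1% of all genes in the wild type and 35.0% in Δ*czt-1*. Centring on the median gene left 1 such gene in the wild type, glucokinase, since the isomerase was just inside the limit, and median-of-ratios scaling gave 2 in Δ*czt-1*, glucokinase being just outside it on the deposited scale. At 1.5-fold, 2 glycolytic genes were higher and 2 lower in the wild type, beside 26.8% and 22.6% of all genes. In Δ*czt-1* 2 were higher and 3 lower at this threshold, beside 29.6% and 29.7%. These counts are near the shares, and nothing is read from them. The difference of the responses, with a median of −0.11, was −0.35 with equal sums, 0.0019 after centring and 0.05 with median-of-ratios scaling, so its sign is not settled. Pseudocounts of 0.1 and 5 moved no count of glycolytic genes. Of the values for single genes, 180 of 200 moved by less than 1.5-fold, and the other 20 were those of both staurosporine responses with equal sums. Depth is unknown, and there are no replicates, so none of these values carries an error. The 2-fold limit is a rule of size, not a call of significance.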
